A study of Mus musculus with 24 samples.

Results

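ER-Hoxb8 cells carrying wild-type human ERG (WT-ERG) were compared with ER-Hoxb8 cells carrying the empty backbone of the same lentiviral vector (BB), both kept without inhibitor. The comparison used the 4 WT-ERG and 4 BB libraries treated with the solvent DMSO, 8 of the 24 libraries of the study, and covered the 12963 of 53801 genes that passed a filter on low counts. ER-Hoxb8 is a murine granulocyte-monocyte progenitor line from C57BL/6 mice, in which a Hoxb8 protein fused to an estrogen receptor domain blocks maturation while beta-estradiol is present. Stable GFP-sorted lines were made with each vector, beta-estradiol was washed out, and RNA was taken after 36 h (the sources used here differ on the time and the inhibitor dose, and those of the labels are given). The other 16 libraries held the P199L-ERG mutant in DMSO and all 3 constructs in 5 µM BRD3308, an inhibitor of the histone deacetylase HDAC3. The study's methods give 4 independent experiments for each sample type, but the sources used here do not state whether these came from separate transductions. An effect of ERG and a difference between derived lines therefore cannot be told apart, and p-values measure the spread between replicate libraries only.

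The 4 WT-ERG libraries held 12510036 to 16280939 counts and the 4 BB libraries 12802587 to 15653775. All 9 markers of myeloid progenitors, among them *Mpo* and *Elane*, were present, with a summed level of 26828 to 29113 CPM (counts scaled to the same library size with TMM factors) in WT-ERG and 26554 to 27134 in BB libraries. Defining markers of mast cells and epithelium had no read in any of the 8 libraries, and those of T cells, erythroid cells, fibroblasts and endothelium summed to at most 1.13 CPM in each library. Markers of B cells summed to 1.82 to 2.75 CPM in WT-ERG and 2.50 to 4.02 CPM in BB libraries. Those of megakaryocytes summed to 10.3 to 13.5 CPM in WT-ERG and 11.9 to 13.7 CPM in BB libraries. Replicate 4 of the WT-ERG cells stood apart in the balance of short and long genes, with a correlation of -0.55 between deviation from the group mean and log2 exon length (7744 genes), whereas the other 23 libraries of the study ran from -0.47 to 0.50. The lowest of these was replicate 4 of the P199L-ERG cells in DMSO, which differed from its other replicates by a chi-square of 12.7 to 21.4 per degree of freedom, where those differed among themselves by 2.22 to 4.64. Replicate 1 had the highest of these correlations in each of the 6 groups.

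ERG is an ETS transcription factor. Proteins of this family bind DNA at a GGAA core, and ERG maintains stem and megakaryocyte programmes in blood. Together with GATA2, RUNX1, TAL1, LYL1, LMO2 and FLI1 it forms the heptad, a group of factors that occupy the same enhancers in stem and leukemic cells. Granulocytic progenitors that mature normally pass from primary granule genes (*Mpo*, *Elane*) to secondary granule genes (*Ltf*, *Camp*, *Ngp*) and then acquire the oxidase, adhesion and chemotaxis genes of the neutrophil.

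The targeted gene was checked first. *Erg* (ENSMUSG00000040732, GRCm38 chromosome 16, 95359169 to 95586593, minus strand) had 110.1, 102, 102 and 104 CPM in the WT-ERG libraries, against 98.8, 94.3, 92.5 and 89.2 CPM in the BB libraries. The groups did not overlap, and the log2 fold change was 0.16, SE 0.04 (edgeR adjusted p = 0.00548). An exact two-sided permutation test gave p = 0.0286, the smallest that 4 against 4 libraries can reach. Reads of the human transgene that map to the mouse gene cannot be separated from mouse *Erg*, so that these values do not measure the expression of the transgene. *Hoxb8*, whose reads include the fusion that holds the line immature, had 741, 717, 703 and 619 CPM in WT-ERG and 773, 761, 774 and 787 CPM in BB libraries. It was lower in all 4 WT-ERG libraries (-0.16, SE 0.04, adjusted p = 0.00471, edgeR with Benjamini-Hochberg adjustment), with replicate 4 the lowest.

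Of the 12963 genes, 2007 (15.5%) passed the test as higher in WT-ERG cells and 1811 (14%) as lower (edgeR quasi-likelihood test, adjusted p under 0.05). These shares are the background for every count of list members given below. Without replicate 4 of the WT-ERG cells, 1836 were higher and 1727 lower, and without replicate 4 of the P199L-ERG cells in DMSO, which takes part in the estimate of the spread, 2214 were higher and 2259 lower (a setting chosen after seeing the data). Most of the differences were small, the log2 fold change having a median of 0.30 in the higher genes, -0.29 in the lower genes and 0.01 in all genes tested. Beyond 1 on the log2 scale, which is more than a doubling or less than a halving, 263 genes were higher (2.03%) and 229 lower (1.77%). The CPM of the groups did not overlap for 30.5% of all genes tested. This share is no background for genes named as largest rises or falls, whose choice required groups that do not overlap. Nor is it one for genes named for small p-values, a choice that favours such groups. For single genes chosen otherwise it is the background of such statements. Large differences gathered at low levels. Among the 3241 genes of lowest mean level, 183 were higher and 138 lower by more than 1 on the log2 scale, against 7 and 12 among the 3241 genes of highest level. No chromosome moved as a whole, since the median log2 fold change of chromosomes 1 to 19 and X lay between -0.01 and 0.05.

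**Figure D1:**
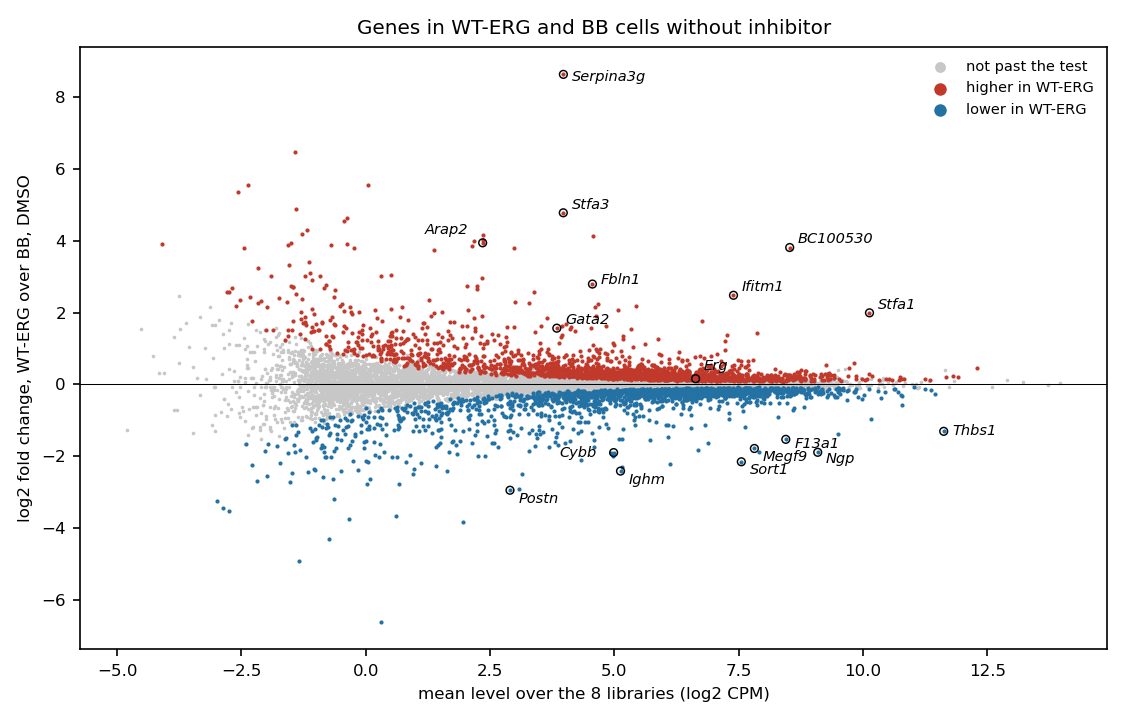
Each point is 1 of the 12963 genes, with its mean level over the 8 DMSO libraries (log2 CPM) on the horizontal axis and its log2 fold change of WT-ERG over BB on the vertical axis, coloured by the edgeR test at an adjusted p of 0.05. The 2007 higher and 1811 lower genes lie mostly near 0, and *Serpina3g* (8.63) and genes of the stefin A cluster stand far above them.

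The stefin A genes of chromosome 16 rose together, and 5 of them, with the transcript *Gm15845*, were among the 15 largest rises of genes with a mean level of at least 2 on the log2 CPM scale. Stefins A are cytosolic inhibitors of cysteine cathepsins, and the mouse carries a tandem cluster of them that is expressed in neutrophil precursors. *Stfa3* had 23.6, 31.8, 30.3 and 35.5 CPM in WT-ERG libraries and 0.572, 1.46, 1.06 and 1.26 CPM in BB libraries (4.78, SE 0.34, adjusted p = 8.16e-10, edgeR). *Stfa2* had 7.02, 10.1, 8.37 and 8.74 CPM in WT-ERG and 0.286, 0.444, 0.774 and 0.631 CPM in BB libraries (4.0, SE 0.25). *Stfa1*, the member with the most reads, had 1536, 1694, 1794 and 2139 CPM in WT-ERG and 393, 409, 497 and 501 CPM in BB libraries (1.99, SE 0.15), which is 105181 against 25354 counts in all. The lowest WT-ERG library of *Stfa1* lay above its highest BB library. The stefin A-like genes *BC100530* (575, 674, 673 and 828 CPM in WT-ERG, 40, 42.4, 57.7 and 56.3 CPM in BB, 3.81, SE 0.19), *BC117090* (4.16, SE 0.22) and *Gm5416* (4.12, SE 0.20), and the transcript *Gm15845* (4.03, SE 0.22), rose as much. *Gm15845* overlaps *BC100530* on the opposite strand, and since the strand setting of the counts is not given in the sources used here, their reads cannot be told apart.

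Promoters of *Stfa1*, *Stfa2* and *Stfa3* are shown because these genes rose together (RefSeq, GRCm38.p6, 250 bases before to 50 after the start of transcription, coding strand, 5′ to 3′). Capitals mark every GGAA and its reverse complement TTCC, the core that ETS factors bind. The promoters lie at chr16:36276898-36277197 (*Stfa1*, plus strand), chr16:36408314-36408613 (*Stfa2*, minus strand) and chr16:36455343-36455642 (*Stfa3*, minus strand).
Stfa1: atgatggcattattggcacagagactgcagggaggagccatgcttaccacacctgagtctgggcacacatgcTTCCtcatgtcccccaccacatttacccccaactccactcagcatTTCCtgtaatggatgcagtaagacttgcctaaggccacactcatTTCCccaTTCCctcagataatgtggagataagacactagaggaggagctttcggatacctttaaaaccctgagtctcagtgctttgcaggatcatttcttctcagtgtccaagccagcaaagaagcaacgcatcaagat
Stfa2: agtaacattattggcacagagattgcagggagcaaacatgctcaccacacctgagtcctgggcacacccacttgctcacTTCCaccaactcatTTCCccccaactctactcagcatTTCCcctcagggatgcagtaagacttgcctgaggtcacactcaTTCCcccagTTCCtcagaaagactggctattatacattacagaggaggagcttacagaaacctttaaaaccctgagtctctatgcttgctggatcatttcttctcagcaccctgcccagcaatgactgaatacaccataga
Stfa3: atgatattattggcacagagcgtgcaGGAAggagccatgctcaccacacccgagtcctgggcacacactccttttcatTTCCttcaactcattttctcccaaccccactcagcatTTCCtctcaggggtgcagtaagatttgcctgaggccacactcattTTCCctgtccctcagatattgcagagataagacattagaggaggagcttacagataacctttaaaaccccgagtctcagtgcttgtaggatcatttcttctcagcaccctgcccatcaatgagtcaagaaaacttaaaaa
The 3 sequences were 81.1% to 82.8% identical over 296 or 297 aligned bases. They hold 4, 5 and 4 copies of the core, where the median of 32851 promoters in the table is 3, with quartiles of 2 and 5. None holds the longer ETS site CCGGAA, and a match or its absence says nothing about binding.

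All 10 tested genes of the cluster were higher, on both strands, from *Stfa2l1* (0.88, SE 0.23) to *Stfa3*. *Gm5483* (1.77, SE 0.21) and *2010005H15Rik* (2.58, SE 0.23), which lie between *Stfa2l1* and *Stfa1*, completed the run. Next to its ends the fold changes were smaller. On the *Stfa2l1* side *Ccdc58* (0.19, SE 0.07) and *Fam162a* (0.66, SE 0.05) passed as higher too, and *Wdr5b*, at -0.20, did not pass. On the *Stfa3* side *Iqcb1*, at -0.27, and *Golgb1*, at 0.04, did not pass. Farther out *Hcls1* was lower (-0.42) and *Fbxo40*, with few reads, higher (1.74). *Csta1*, at the end of the cluster, had 2 counts in WT-ERG and 1 count in BB libraries and was not tested. Members of the cluster are close copies of each other, so that reads may be shared between them and the fold change of a single member is uncertain. The neighbours outside the rule for named genes were chosen after their values were seen.

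**Figure D2:**
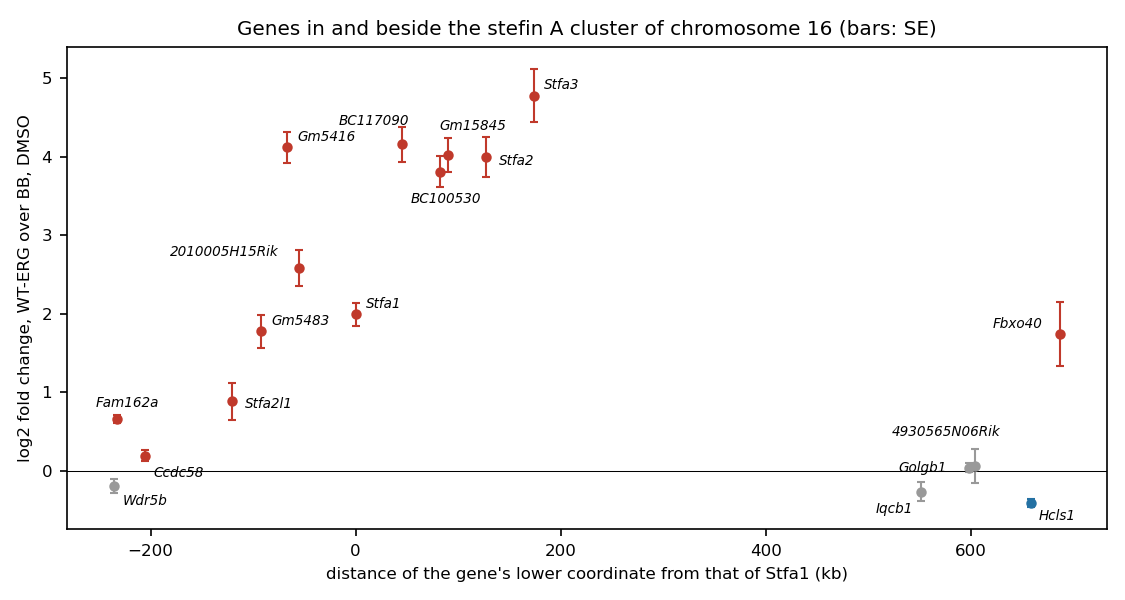
Log2 fold change of WT-ERG over BB (points, with SE) for tested genes in and beside the stefin A cluster, against the distance of each gene's lower coordinate from that of *Stfa1* in kb. Red genes passed the test as higher, blue as lower and grey did not pass, and the 10 genes from *Stfa2l1* (0.88) to *Stfa3* (4.78) are all red.

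The largest rise of all was that of *Serpina3g*, a protease inhibitor of leukocytes. It had 30.2, 30.8, 31.8 and 32.6 CPM in WT-ERG libraries and 0.0715, 0, 0.211 and 0 CPM in BB libraries. That is 1854 counts in WT-ERG and 4 counts in BB cells, so that the fold change of 8.63 (SE 0.21, edgeR adjusted p = 1.37e-23) rests on a gene with almost no reads in BB cells. At so few counts the SE, taken from the test statistic, may be too small for this gene. Its promoter (chr12:104235897-104236196, plus strand, RefSeq, GRCm38.p6) is shown because it was the largest rise, with GGAA and TTCC again in capitals.
Serpina3g: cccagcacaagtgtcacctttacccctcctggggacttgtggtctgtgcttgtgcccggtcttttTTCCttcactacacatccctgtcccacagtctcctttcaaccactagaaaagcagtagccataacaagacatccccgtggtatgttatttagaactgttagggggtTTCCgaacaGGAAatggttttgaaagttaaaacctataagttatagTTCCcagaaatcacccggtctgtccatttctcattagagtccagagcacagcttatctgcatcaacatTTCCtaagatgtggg
It holds 5 copies of the core and no CCGGAA. The gene belongs to a family of close copies in mice, and the related *Serpina3f* had 12 counts in WT-ERG and 0 in BB cells.

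Other large rises were those of genes with little known role in granulocytes. *Arap2*, a GTPase-activating protein for ARF, had 9.47, 9.46, 10.3 and 9.15 CPM in WT-ERG and 0.572, 0.952, 0.352 and 0.552 CPM in BB libraries (3.94, SE 0.17). The organic cation transporter *Slc22a3* had 16.1, 15.7, 13.1 and 13.8 CPM in WT-ERG and 1.29, 0.952, 0.844 and 1.1 CPM in BB libraries (3.80, SE 0.17). *Shank3* (3.85, SE 0.25), known as a scaffold of synapses, the fatty acid desaturase *Scd1* (2.96, SE 0.17), the protein kinase C isoform *Prkch* (2.73, SE 0.18), the palmitoyltransferase *Zdhhc2* (2.73, SE 0.15) and the lymphocyte adaptor *Lax1* (2.65, SE 0.19) were among the 15 largest rises too. At higher levels, the matrix protein fibulin 1, *Fbln1*, had 40.1, 41.4, 41.8 and 41.5 CPM in WT-ERG and 6.08, 5.59, 6.69 and 5.36 CPM in BB libraries (2.79, SE 0.08). The 4 WT-ERG values of *Fbln1* lay close together, far above the BB values. *Ifitm1*, an interferon-induced membrane protein that restricts viral entry, had 270.2, 285, 263 and 324 CPM in WT-ERG and 48.3, 49.1, 52.9 and 54.1 CPM in BB libraries (2.48, SE 0.06).

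The largest falls among genes of at least 2 log2 CPM included genes of adhesion, sorting and matrix. Periostin, *Postn*, a secreted matrix protein, had 1.26, 2.06, 1.43 and 2.1 CPM in WT-ERG and 14.2, 12.8, 11.5 and 14.3 CPM in BB libraries (-2.94, SE 0.15). Sortilin, *Sort1*, which sorts proteins between the Golgi and endosomes, had 63.9, 71, 70.8 and 70 CPM in WT-ERG and 294, 302, 317 and 313 CPM in BB libraries (-2.15, SE 0.06). Alpha-catenin, *Ctnna1*, which links cadherins to actin, had 24, 24.4, 25.2 and 24.5 CPM in WT-ERG and 111, 110.3, 117 and 121 CPM in BB libraries (-2.23, SE 0.06). All 3 genes fell to less than 25% of the mean in BB cells. *Megf9*, a membrane protein with EGF-like domains, had the smallest p-value of all genes (adjusted p = 2.13e-24, edgeR), with 97.6, 101, 103 and 104 CPM in WT-ERG and 337, 347, 356 and 356 CPM in BB libraries (-1.78, SE 0.04). The semaphorin and VEGF coreceptor *Nrp2* (-2.10, SE 0.09), the Rac GTPase-activating protein *Chn2* (-2.0, SE 0.14), the kinase *Prkcb* (-1.99, SE 0.07), glutamine synthetase *Glul* (-1.90, SE 0.06), the mitochondrial protein *Miga1* (-2.50, SE 0.13) and *4933440M02Rik* (-2.91, SE 0.14) completed this group.

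**Figure D3:**
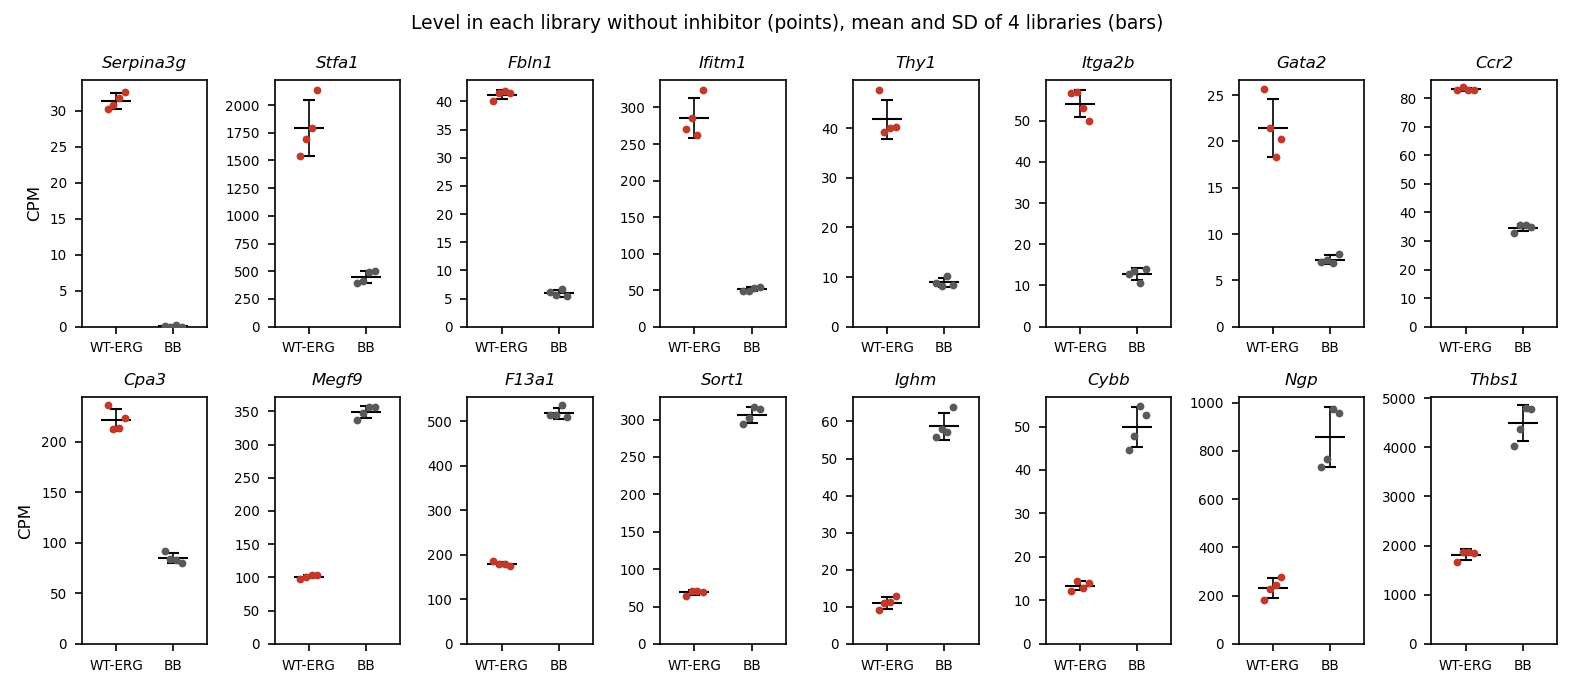
CPM of 16 genes in each of the 4 WT-ERG libraries (red, left) and 4 BB libraries (grey, right) treated with DMSO, with bars for the mean and SD and each vertical axis starting at 0. The groups stand apart in each panel. For panels from the largest rises and falls, such as *Serpina3g* and *Ngp*, the choice required this. For others, such as *Megf9* and *Itga2b*, named for small p-values in the same libraries, the choice favoured it without requiring it. *Ccr2* (82.8 to 83.8 CPM in WT-ERG) is an example of close replicates.

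Of the 7 heptad factors, 3 were higher (*Gata2*, *Lmo2* and *Erg*), none was lower and 4 did not pass. The median log2 fold change was 0.16 against 0.01 over all genes. With the 2 groups compared alone, 4 were higher and 1 lower. *Gata2*, which keeps stem and progenitor cells from maturing, had 25.7, 21.5, 18.3 and 20.2 CPM in WT-ERG and 7.01, 7.24, 6.83 and 7.88 CPM in BB libraries. Its lowest WT-ERG library, replicate 3, had more than 2 times the CPM of the highest BB library (exact two-sided permutation p = 0.0286). The adaptor *Lmo2*, which bridges heptad members, had 222, 209.5, 215 and 236 CPM in WT-ERG and 143, 134, 138 and 137 CPM in BB libraries (0.68, SE 0.04). *Tal1* was at 0.24, SE 0.09 (adjusted p = 0.0592), *Lyl1* at 0.04, SE 0.04 (adjusted p = 0.586), *Runx1* at 0.03, SE 0.08 (adjusted p = 0.838) and *Fli1*, the closest relative of ERG, at -0.11, SE 0.05 (adjusted p = 0.116), and none of these passed (edgeR). *Tal1* passed in the same direction without WT-ERG replicate 4 (adjusted p = 0.0432) or BB replicate 1 (adjusted p = 0.0307), and with 3 other settings.

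Of 22 listed genes of stem and progenitor cells, 15 were tested, of which 10 rose and 2 fell, with a median of 0.41. With more than 30 reads required in every library compared, 6 rose and 2 fell. The filter on low counts can pass a gene through the group where it is high, so that the count of 10 is partly set by the filter. *Myct1*, a target of MYC that endothelial and stem cells express, had 85 counts in WT-ERG and 3 counts in BB cells. Besides *Gata2* and *Lmo2*, the Polycomb gene *Bmi1* (0.41, SE 0.04) was higher, and *Prom1*, which encodes CD133 (-1.38, SE 0.09), and *Hlf*, a stem cell transcription factor (-0.36, SE 0.05), were lower. Other ETS factors went both ways, with 4 of 14 higher and 4 lower (median -0.01). *Ets1* had 0.772, 0.182, 0.806 and 0.729 CPM in WT-ERG and 2.93, 2.41, 2.25 and 2.29 CPM in BB libraries (-2.01, SE 0.26), and *Etv5* had 2.95, 2.91, 2.6 and 2.83 CPM in WT-ERG and 1.22, 1.08, 1.06 and 0.867 CPM in BB libraries (1.41, SE 0.20). Both had few reads, and the count of 4 lower ETS factors was 2 with any 1 of WT-ERG replicates 2 and 3 or BB replicates 1, 3 and 4 left out. *Spi1*, which encodes PU.1, the ETS factor of myeloid identity, was lower (-0.16, SE 0.04) and *Etv6* was higher (0.21, SE 0.04). Among 15 myeloid transcription factors, 4 were higher and 2 lower (median 0.01). *Cebpa*, which commits progenitors to the granulocytic lineage, had 494, 471, 498 and 493 CPM in WT-ERG and 352, 362, 376 and 382 CPM in BB libraries (0.41, SE 0.03), *Ikzf2* was higher (0.64, SE 0.10), and *Zeb2* (-0.30, SE 0.04) and *Jun* (-0.89, SE 0.20) were lower. Of 7 Hox genes and cofactors, *Hoxb8* and *Pbx2* (-0.13, SE 0.04) were lower and none was higher (median -0.09).

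Secondary and tertiary granule genes fell, while primary granule genes were divided. In these bulk samples, fewer cells of a type and less RNA per cell cannot be told apart. Of 14 secondary and tertiary granule genes, 9 fell and 1 rose, and the median was -0.76, that of all genes being 0.01. The count of genes that rose was 2 without WT-ERG replicate 1 or BB replicate 4 and with 7 other settings. The chitinase-like protein *Chil3* had 10.8, 12.6, 10.8 and 13.8 CPM in WT-ERG and 54.5, 46.8, 71.8 and 61.9 CPM in BB libraries (-2.29, SE 0.12). Neutrophilic granule protein, *Ngp*, had 181, 227, 242 and 277 CPM in WT-ERG and 733, 768, 973 and 956 CPM in BB libraries (-1.89, SE 0.14). Lactoferrin, *Ltf*, which binds iron, had 10.4, 12.1, 10.1 and 12.1 CPM in WT-ERG and 30.9, 32.7, 48.3 and 36 CPM in BB libraries (-1.73, SE 0.14), and *Olfm4*, a marker of a neutrophil subset, was lower too (-2.0, SE 0.22). *Cd177*, a neutrophil surface glycoprotein, was higher, with 162, 181, 176 and 184 CPM in WT-ERG and 107, 108, 128 and 129 CPM in BB libraries (0.58, SE 0.06). Of 11 primary granule genes, 2 were higher and 3 lower, beside 15.5% and 14% of all genes (median 0.04). Cathepsin G, *Ctsg*, had 3909, 3920.2, 4164 and 4516 CPM in WT-ERG and 3527, 3550.3, 3583 and 3600.4 CPM in BB libraries (0.21, SE 0.04), whereas neutrophil elastase, *Elane*, had 777, 802, 846 and 916 CPM in WT-ERG and 1038, 1009, 1073 and 1122 CPM in BB libraries (-0.34, SE 0.05). *Ctsc*, which activates these proteases, was higher (0.16, SE 0.04), and myeloperoxidase, *Mpo*, at 0.05, SE 0.04 (adjusted p = 0.467, edgeR), did not pass.

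Of the 6 subunits of the NADPH oxidase, which makes superoxide in phagocytes, 5 were lower and none was higher (median -0.18). *Cybb*, the membrane-bound catalytic subunit, had 12.2, 14.4, 13 and 14 CPM in WT-ERG and 44.6, 47.9, 54.6 and 52.7 CPM in BB libraries (-1.90, SE 0.08), a far larger fall than those of its partners *Cyba* (-0.34, SE 0.07), *Ncf1* (-0.18, SE 0.03) and *Rac2* (-0.18, SE 0.04). Its promoter is shown as that of a gene that fell (chrX:9469275-9469574, minus strand, RefSeq, GRCm38.p6, GGAA and TTCC in capitals).
Cybb: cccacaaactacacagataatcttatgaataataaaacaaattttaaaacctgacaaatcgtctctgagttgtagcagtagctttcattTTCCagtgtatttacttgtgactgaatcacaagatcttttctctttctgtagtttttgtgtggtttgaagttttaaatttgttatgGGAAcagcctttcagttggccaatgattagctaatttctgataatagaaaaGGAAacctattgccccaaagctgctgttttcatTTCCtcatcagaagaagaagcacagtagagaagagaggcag
It holds 4 copies of the core and no CCGGAA.

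Mature neutrophil genes went both ways, with 9 of 22 higher and 6 lower (median 0.13). With more than 30 reads required in every library compared, 8 were higher and 3 lower. Several receptors of neutrophils were higher. *Csf3r*, the G-CSF receptor, had 229, 240.0, 234 and 217 CPM in WT-ERG and 158, 174, 165 and 161 CPM in BB libraries (0.48, SE 0.04). The chemokine receptor *Cxcr2* (0.63, SE 0.07), the decoy receptor *Il1r2* (0.94, SE 0.10) and *Mgam*, maltase-glucoamylase (1.44, SE 0.07), were higher as well. The adhesion genes *Itgb2* (-0.66, SE 0.04) and *Itgam* (-0.34, SE 0.04), which together encode CD11b/CD18, and *Ly6c2*, a surface antigen of monocytes and neutrophils, were lower. *Ly6c2* had 358, 379, 406 and 462 CPM in WT-ERG and 982, 981, 1099 and 1127 CPM in BB libraries (-1.38, SE 0.07), and its neighbours *Ly6c1* (-1.37, SE 0.34), *Gm5960* (-1.13, SE 0.13), *I830127L07Rik* (-1.87, SE 0.11) and *Ly6g*, the classical neutrophil antigen (-1.50, SE 0.43), fell with it on chromosome 15. Like the stefins, these genes resemble each other, and *Ly6g* had only 0.168 CPM in WT-ERG and 0.492 CPM in BB cells on average.

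Monocyte and macrophage genes were more often lower, in 8 of 16, than higher, in 4 of 16, with a median of -0.51. With more than 30 reads required in every library compared, 7 were lower and 2 higher. *F13a1*, the coagulation factor XIII subunit of monocytes, had 185, 179, 179.6 and 175 CPM in WT-ERG and 514, 513, 536 and 510.0 CPM in BB libraries (-1.53, SE 0.04). *Adgre1*, which encodes F4/80, had 17.7, 18, 18.8 and 17.7 CPM in WT-ERG and 39.8, 37.8, 41 and 37.9 CPM in BB libraries (-1.11, SE 0.06), and the perforin-like *Mpeg1* was lower (-0.61, SE 0.05). Against the list, *Ccr2*, the receptor that brings monocytes into tissue, had 82.9, 83.8, 82.8 and 82.8 CPM in WT-ERG and 32.8, 35.5, 35.5 and 34.8 CPM in BB libraries (1.26, SE 0.05), and *Cd68* (0.29, SE 0.06) and *Itgax*, which encodes CD11c (1.32, SE 0.28), were higher. Chemoattractant receptors were divided, with 4 of 10 higher and 4 lower (median 0.09). *Ccr1* (0.72, SE 0.08) was among the higher ones, and the leukotriene B4 receptor *Ltb4r1* (-0.54, SE 0.08), *Ccrl2* (-0.69, SE 0.09) and the C5a receptor *C5ar1* (-1.29, SE 0.20) were lower.

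Of 15 cytokines and chemokines, 8 were lower and 4 higher (median -0.40), but the count of lower genes was 5 without BB replicate 2 or 3, 4 without BB replicate 4 or WT-ERG replicate 1 or 3, and 3 without WT-ERG replicate 2. *Tnfsf13b*, which encodes the B cell survival factor BAFF, had 0.702, 1.46, 1.24 and 1.54 CPM in WT-ERG and 3.58, 4.57, 3.94 and 4.42 CPM in BB libraries (-1.74, SE 0.21), and *Il18* (-2.47, SE 0.45) and *Csf1* (-0.56, SE 0.11) were lower, whereas *Tnfsf14* (0.38, SE 0.08) and *Ccl9* (0.26, SE 0.05) were higher. Of 17 pattern recognition receptors and adaptors, 6 were lower and 2 higher (median -0.09), the count of higher genes being 1 without WT-ERG replicate 1, 2 or 3 or BB replicate 1 or 4. The inflammasome sensor *Nlrp3* had 5.05, 4.85, 5.95 and 7.93 CPM in WT-ERG and 12.9, 19.3, 23.2 and 23.7 CPM in BB libraries (-1.75, SE 0.29), the Toll-like receptors *Tlr7* (-0.87, SE 0.10) and *Tlr2* (-0.74, SE 0.08) were lower, and *Clec4e* was higher (0.46, SE 0.07). Of 11 leukotriene and prostaglandin genes, 5 were lower and 2 higher (median -0.10), with the leukotriene receptor *Cysltr1* (-1.94, SE 0.18), the reductase *Ptgr1* (-0.79, SE 0.05) and leukotriene A4 hydrolase *Lta4h* (-0.32, SE 0.04) lower and the phospholipase *Pla2g4a* higher (0.23, SE 0.04). Fc receptors and their adaptors gave 4 of 14 lower and 2 higher, beside 14% and 15.5% of all genes (median -0.11). The inhibitory receptor *Fcgr2b* was higher (0.29, SE 0.04). The 4 lower were 2 without WT-ERG replicate 3 or BB replicate 2, 3 or 4, and the 2 higher were 1 without WT-ERG replicate 3 or 4 or BB replicate 1 or 3. Of 14 interferon-stimulated genes 3 were lower and 1 was higher, beside 14% and 15.5% of all genes (median -0.07). Without WT-ERG replicate 3 or BB replicate 1, 2 were higher. First among the lower was *Ifit2* (-0.83, SE 0.09). The higher gene was the antiviral *Oas3*, with 22 counts in WT-ERG and 4 in BB cells. Its call was lost without WT-ERG replicate 1 or BB replicate 3 or 4 (adjusted p of 0.0574, 0.058 and 0.0523, edgeR). Of 12 genes of MHC presentation 5 were higher and none lower (median 0.08), among them the class I transactivator *Nlrc5* (0.46, SE 0.07).

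Receptors for growth factors and cytokines went both ways, with 7 of 27 higher and 9 lower (median -0.02). With more than 30 reads required in every library compared, 4 were higher and 8 lower. The interleukin 6 receptor was split. Its ligand-binding chain *Il6ra* had 14.7, 15.8, 13.6 and 13.7 CPM in WT-ERG and 29.4, 31.4, 32.1 and 26.6 CPM in BB libraries (-1.05, SE 0.07), and its signalling chain *Il6st*, gp130, had 1.96, 1.52, 1.8 and 0.648 CPM in WT-ERG and 0.0715, 0.0635, 0.0704 and 0 CPM in BB libraries (adjusted p = 1.28e-08, edgeR). Reads of *Il6st* came to 90 counts in WT-ERG and 3 counts in BB cells, and replicate 4 was the lowest of the WT-ERG libraries. *Csf2rb2*, the interleukin 3 receptor chain particular to mice, was lower (-0.50, SE 0.05), and it closely resembles *Csf2rb*. Of 16 integrin subunits 5 were higher and 5 lower (median 0.05, 3 lower without BB replicate 2). With more than 30 reads required in every library compared, 2 were higher and 4 lower. *Itga6* (0.51, SE 0.05) and *Itgb7* (1.38, SE 0.16) were higher and *Itgb5* (-0.20, SE 0.05) was lower beside *Itgb2*. Of 12 matrix genes 4 were lower and 2 higher (median -0.03, 1 higher without WT-ERG replicate 1 or 2 or BB replicate 1, 3 or 4). Thrombospondin 1, *Thbs1*, had 1659, 1875, 1875 and 1858 CPM in WT-ERG and 4020.2, 4367, 4798 and 4769 CPM in BB libraries (-1.30, SE 0.06), and fibronectin, *Fn1*, was lower too (-1.35, SE 0.13), in contrast to *Fbln1*. Of 9 serpins, *Serpina3g* and *Serpinb10* (1.25, SE 0.06) were higher and *Serpinb1a* lower (-0.11, SE 0.04, median of the list 0.001), the last passing only with all 8 libraries or without BB replicate 1 or WT-ERG replicate 4.

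Genes of other lineages were counted where 15.5% of all genes tested were higher and 14% lower. Many listed genes did not pass the filter, and counts from so few genes are not read as results on a lineage. Of 21 listed megakaryocyte and platelet genes, 10 were tested, 3 of them higher and 1 lower (median 0.13). *Itga2b*, which encodes CD41, an integrin of megakaryocytes and early progenitors, had 56.6, 57.1, 53.1 and 49.9 CPM in WT-ERG and 12.9, 13.6, 10.7 and 14.1 CPM in BB libraries (2.08, SE 0.08). *F2rl2* (1.39, SE 0.26) and *Nfe2* (0.12, SE 0.03) were higher and the platelet glycoprotein *Gp9* lower (-0.59, SE 0.17). The sum of *Gp9*, *Pf4* and *Ppbp* was 10.3 to 13.5 CPM in WT-ERG and 11.9 to 13.7 CPM in BB libraries. Of 13 listed mast cell and basophil genes, 5 were tested, 3 of them higher and 1 lower (median 1.14). Carboxypeptidase A3, *Cpa3*, had 236, 212, 213 and 223 CPM in WT-ERG and 91.7, 83.9, 82.7 and 80.1 CPM in BB libraries (1.39, SE 0.06), the basophil protease *Mcpt8* was higher (1.14, SE 0.07), and *Hdc*, which makes histamine, was lower (-0.32, SE 0.05), while the mast cell proteases *Cma1*, *Tpsb2* and *Mcpt4* had no reads.

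Among lymphoid genes, *Thy1*, a surface antigen of T cells and some progenitors, had 47.7, 39.3, 40.1 and 40.2 CPM in WT-ERG and 8.87, 8.19, 10.2 and 8.36 CPM in BB libraries (2.23, SE 0.08). *Nkg7*, a cytotoxic granule gene, was higher too (0.97, SE 0.06). Of 27 listed T and NK genes, 5 were tested, 3 of them higher and none lower (median 0.48). The CD3 genes *Cd3d*, *Cd3e* and *Cd3g* summed to at most 0.12 CPM in each WT-ERG and 0.14 CPM in each BB library. The immunoglobulin heavy chain *Ighm* had 9.12, 11, 11.2 and 12.9 CPM in WT-ERG and 55.8, 57.8, 57.2 and 63.8 CPM in BB libraries (-2.41, SE 0.08), and the surrogate light chain *Igll1* was lower (-1.47, SE 0.07). With *Cd79b* (-0.32, SE 0.07) they were the 3 lower of 7 tested B lymphocyte genes, none being higher (median -0.32). The B cell receptor chain *Cd79a*, a defining marker, had 1.75, 2.49, 2.29 and 2.75 CPM in WT-ERG and 2.5, 2.73, 3.38 and 3.94 CPM in BB libraries (-0.43, SE 0.18, adjusted p = 0.0676, edgeR), and did not pass. The part of fewer B cell transcripts in the fall of *Ighm* was not tested. Of 21 listed endothelial genes, 7 were tested, 4 of them higher and none lower (median 0.66). *Pecam1*, CD31, had 139, 138, 143 and 136 CPM in WT-ERG and 81.5, 79.9, 82.8 and 91.4 CPM in BB libraries (0.73, SE 0.05), *Egfl7* was higher (0.80, SE 0.11), and the receptor *Tie1* had 49 counts in WT-ERG and 4 counts in BB cells, while the defining genes *Cdh5* and *Kdr* had no reads in any of the 8 libraries. Of 11 listed dendritic cell genes, 4 were tested and all 4 were higher (median 0.79), *Tcf4* (0.37, SE 0.06) and *Flt3* (1.21, SE 0.24) among them. The filter on low counts can pass a gene through the group where it is high. *Tie1*, for instance, was almost without reads in BB cells. Counts of higher genes in these lists are therefore partly set by the filter. Of 3 eosinophil genes *Siglecf* was higher (0.45, SE 0.05) and *Prg3* lower (-0.99, SE 0.21, median -0.89, 2 lower without BB replicate 4), and of 4 erythroid genes *Car2* alone passed, as lower (-0.40, SE 0.07, median -0.46, 2 lower without WT-ERG replicate 1 or BB replicate 1).

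Genes of ribosome production rose and many genes of DNA replication fell, both by small amounts. Of 20 genes of ribosome biogenesis, 17 were higher and none lower, and all 20 fold changes were positive, with a median of 0.30 against 0.01 over all genes. *Dkc1*, which modifies ribosomal RNA, had 155, 152, 152 and 156 CPM in WT-ERG and 118, 120.5, 118 and 119.8 CPM in BB libraries (0.37, SE 0.04). The helicase *Ddx21* (0.30, SE 0.04), the nucleolar GTPase *Gnl3* (0.41, SE 0.06) and the snoRNA-binding *Nop56* (0.28, SE 0.04) were the others with the smallest p-values. *Myc*, a driver of this programme that the list includes, had 229, 234, 214 and 219 CPM in WT-ERG and 162, 159, 148 and 139.7 CPM in BB libraries (0.55, SE 0.08), a gene singled out after its values were seen. Of 24 DNA replication genes, 13 were lower and none higher (median -0.13). The helicase subunit *Mcm5* had 539, 523, 557 and 537 CPM in WT-ERG and 622, 629, 641 and 651 CPM in BB libraries (-0.24, SE 0.03), and the sliding clamp *Pcna* (-0.21, SE 0.04), the ribonucleotide reductase *Rrm1* (-0.15, SE 0.03) and *E2f1* (-0.25, SE 0.05) were lower. Of 23 mitosis genes 4 were lower and 1 higher, beside 14% and 15.5% of all genes (median -0.01, 2 lower without WT-ERG replicate 2 or BB replicate 1 or 3, 2 higher without WT-ERG replicate 1), *Mki67*, the Ki-67 antigen, being lower (-0.28, SE 0.07) and *Cdc20* higher (0.17, SE 0.04).

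Of 10 D-type cyclins, their kinases and CDK inhibitors, 6 were higher and 2 lower (median 0.16). The count of lower genes was 1 without WT-ERG replicate 2 or 3 or BB replicate 4, and 4 with no filter on low counts. *Ccnd2*, cyclin D2, had 145, 142, 138 and 125 CPM in WT-ERG and 100.1, 93.3, 97.6 and 98.2 CPM in BB libraries (0.50, SE 0.05). The inhibitors *Cdkn1a*, p21 (0.45, SE 0.06), and *Cdkn2a*, which encodes p16 and p19Arf (0.73, SE 0.11), were also higher, and *Cdkn2c* was lower (-0.30, SE 0.06). In glycolysis 11 of 19 genes were higher and 2 lower (median 0.16, 1 lower without any 1 of WT-ERG replicates 1 to 3 or BB replicates 2 to 4), with lactate dehydrogenase *Ldha* (0.29, SE 0.03) and the glucose transporter *Slc2a3* (0.54, SE 0.06) higher and hexokinase 1, *Hk1*, lower (-0.23, SE 0.03). In the BCL2 family 4 of 14 were higher and 1 lower, beside 15.5% and 14% of all genes (median -0.02). The survival factor *Bcl2* itself had 29, 29.1, 26.6 and 25.6 CPM in WT-ERG and 18.5, 15.6, 15.7 and 16.8 CPM in BB libraries (0.73, SE 0.06), and *Bmf*, which promotes cell death, was lower (-0.71, SE 0.13). Cholesterol synthesis and uptake gave 2 of 18 lower and none higher (median -0.03, 1 lower without WT-ERG replicate 3 or BB replicate 1), *Sc5d* (-0.26, SE 0.04) being the larger of the falls. Among 15 AP-1 and immediate early genes 3 were higher and 3 lower, beside 15.5% and 14% of all genes (median -0.04). *Fosl1* was higher (0.89, SE 0.16) and *Fosl2* lower (-0.39, SE 0.09).

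Corepressor and chromatin genes were counted where 15.5% of all genes were higher and 14% lower. Of 14 members and partners of the NCoR-HDAC3 complex, which removes acetyl groups from histones at repressed genes, 2 were higher, none was lower and 12 did not pass (median 0.03). The count of lower genes was 1 with the 2 groups compared alone, with no filter on low counts or with the replicate block. *Cbfa2t3*, the ETO2 corepressor, had 91.6, 99.7, 80.9 and 77.8 CPM in WT-ERG and 65.5, 67, 57.8 and 61.2 CPM in BB libraries (0.48, SE 0.07), and *Tbl1xr1* was higher (0.16, SE 0.06), a call lost without WT-ERG replicate 4 (adjusted p = 0.17, edgeR) or BB replicate 1, 2 or 3. *Hdac3* was at 0.04, SE 0.04 (95% confidence interval -0.05 to 0.12, adjusted p = 0.568, edgeR) and *Ncor1* at -0.06, SE 0.05 (-0.16 to 0.05, adjusted p = 0.478), where replicate 4 of the WT-ERG cells lay below all other libraries and the value without it was 0.02. SWI/SNF subunits gave 2 of 13 higher and 4 lower (median -0.08, 1 higher without BB replicate 1), with *Smarce1* (0.16, SE 0.05) higher and *Brd9* (-0.19, SE 0.05) lower, and Polycomb genes gave 2 of 16 higher, *Bmi1* and *Cbx7* (0.52, SE 0.09), and 2 lower, *Jarid2* (-0.14, SE 0.04) and *Ezh2* (-0.13, SE 0.05, median of the list 0.01), the last losing its call without WT-ERG replicate 3 or 4 or BB replicate 1, 2 or 4. Without BB replicate 1 the higher Polycomb genes were 4.

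**Figure D4:**
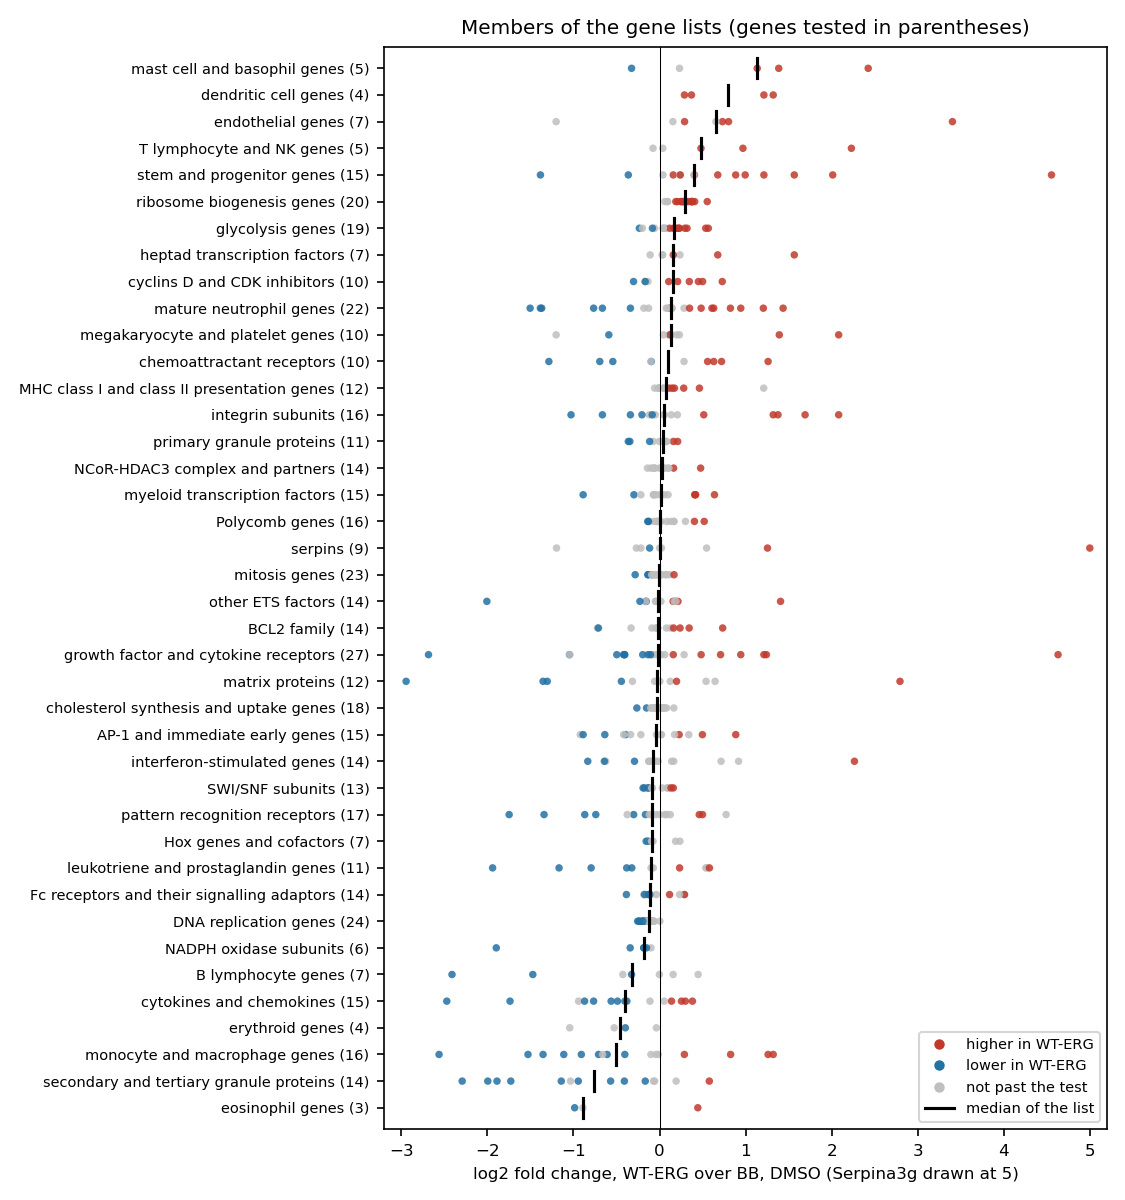
Log2 fold change of WT-ERG over BB in DMSO for every tested member of 40 gene lists, with the number tested in parentheses, the median of each list as a black bar, and lists sorted by median. Red members passed as higher, blue as lower and grey did not pass, and *Serpina3g* (8.63) is drawn at 5, the 20 ribosome biogenesis genes (median 0.30) lie close together, and the 14 secondary granule genes (median -0.76) are spread widely.

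A few genes were close to absent in one of the groups. *Sh3d19*, an adaptor with SH3 domains, had 2.32, 2.0, 2.29 and 1.46 CPM in the WT-ERG libraries and 2 counts in all 4 BB libraries together. *Stra6*, a membrane receptor for retinol-binding protein, had 1 count in all 4 WT-ERG libraries together and 2.50, 2.22, 2.67 and 2.44 CPM in the BB libraries. Besides *Myct1*, given above with the stem cell genes, these were the only genes with at most 3 counts in one group and at least 1 CPM in every library of the other.

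Besides the stefin A and Ly6 genes, few large differences lay side by side. Runs of 3 or more genes that passed, differed by more than 1 on the log2 scale and started within 300 kb were listed after the values were seen, and no test was made of them. On chromosome 7, *Ifitm3* (197, 201, 213 and 231 CPM in WT-ERG, 88.3, 83.7, 91.3 and 97.9 CPM in BB, 1.22, SE 0.05) and *B4galnt4*, a glycosyltransferase (1.63, SE 0.10), rose beside *Ifitm1*. On chromosome 15, the keratins *Krt7* (2.01, SE 0.32) and *Krt80* (1.48, SE 0.08), the scaffold *Grasp* (1.43, SE 0.23) and the transcript *Gm35853* (1.48, SE 0.15), which overlaps *Krt80* on the opposite strand, were higher. On chromosome 2, *Gm29233* (-1.26, SE 0.18), which lies within *Thbs1* on the opposite strand, and its neighbour *Gm13986* (-1.15, SE 0.38) fell with it, the last losing its call without WT-ERG replicate 1 or BB replicate 4 (adjusted p of 0.0834 and 0.116, edgeR). On chromosome 14, *Ppp3cc* (33 counts in WT-ERG, 6 in BB) and *Piwil2* (25 counts in WT-ERG, 5 in BB) were higher, as was *Slc39a14* (15 counts in WT-ERG, 2 in BB), which lost its call without WT-ERG replicate 1 (adjusted p = 0.0699, edgeR). The other 2 runs held genes of both signs, *Cntnap1* (1.59, SE 0.16), *Ccr10* (1.24, SE 0.25) and *Cntd1* (-1.46, SE 0.36) on chromosome 11 and the histone genes *Hist1h4d* (1.45, SE 0.34), *Hist1h1c* (-1.19, SE 0.21) and *Hist1h3c* (1.26, SE 0.22) on chromosome 13.

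The ETS site was counted in RefSeq promoters. Of all 32851 promoters in the table, not only those of tested genes, 14.9% held CCGGAA on either strand. GGAA was held by 96.0% and CCGGAAGT, which contains the shorter motifs, by 3.89%. The shares by gene cover tested genes with a promoter in the table, 1545 of 2007 higher and 1429 of 1811 lower genes. A gene can have more than 1 promoter, so that shares per promoter are no background for shares by gene. By gene, 28.7% of 1545 higher genes, 27.2% of 1429 lower genes and 35.5% of 6332 other tested genes had at least 1 promoter with CCGGAA. With CCGGAAGT the shares were 8.41%, 7.0% and 10.8%, and with GGAA 96.2%, 96.7% and 96.9%, in the same order. Promoters with CCGGAA were less frequent among genes that differed than among the others, and no test was made of the shares.

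The same difference between WT-ERG and BB cells was measured in separate libraries treated with BRD3308, which come from the same lines, so that differences between the lines recur in them. There 1354 genes (10.4%) passed as higher in WT-ERG cells and 1380 (10.6%) as lower (edgeR, adjusted p under 0.05). Of the 2007 genes higher in DMSO, 1907 had the same sign in BRD3308 (95%) and 1011 passed there in the same direction. Of the 1811 genes lower in DMSO, 1757 had the same sign (97%) and 1055 passed, where 75.7% of all genes tested had the same sign. *Nudt18*, a nucleotide hydrolase, was the only gene that passed in opposite directions, at -0.22 in BRD3308 and 0.24 in DMSO, and its call in DMSO was lost without WT-ERG replicate 1 (adjusted p = 0.0512, edgeR). Across the 12963 genes, which are not independent replicates, the fold changes had a Pearson correlation of 0.80 and a Spearman correlation of 0.66.

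**Figure D5:**
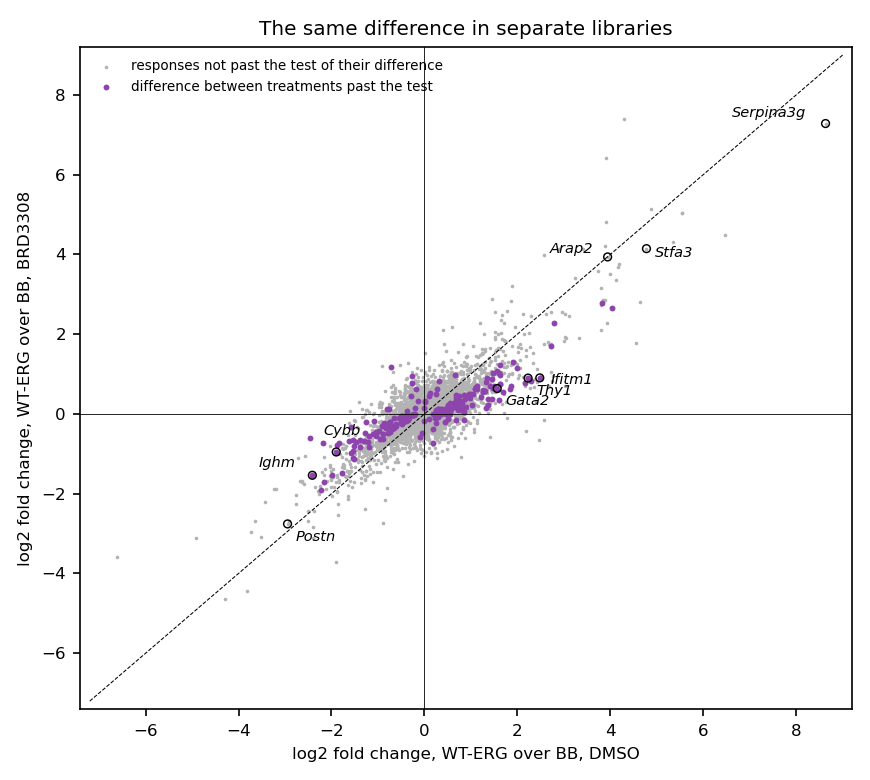
Log2 fold change of WT-ERG over BB in DMSO (horizontal axis) and in BRD3308 (vertical axis) for the 12963 genes, with genes whose difference between treatments passed the test in purple and the line of equality dashed. Most genes far from 0 keep their sign, and purple genes such as *Ifitm1* and *Thy1* lie nearer to 0 on the vertical than on the horizontal axis.

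The difference between WT-ERG and BB cells itself differed between treatments for few genes, being higher in BRD3308 for 106 (0.818%) and lower for 115 (0.887%) of the 12963 genes. Without BB replicate 3 in DMSO the first of these counts was 70, and with the replicate block the counts were 228 and 219. *Ifitm1* was at 0.90 in BRD3308 and at 2.48 in DMSO, and the difference of -1.58 passed (adjusted p = 7.71e-13, edgeR). *Thy1* (0.90 in BRD3308, 2.23 in DMSO), *Gata2* (0.64 in BRD3308, 1.57 in DMSO) and *Ccr2* (0.60 in BRD3308, 1.26 in DMSO) had smaller rises with the inhibitor, and *Cybb* (-0.95 in BRD3308, -1.90 in DMSO), *Ly6c2* (-0.64 in BRD3308, -1.38 in DMSO) and *Thbs1* (-0.69 in BRD3308, -1.30 in DMSO) smaller falls. Of the 113 higher genes whose difference between treatments passed the test, 109 had the smaller fold change in BRD3308, as did 91 of 91 such lower genes. These genes were chosen by their values in DMSO, which favours the larger value there. *Serpina3g* (7.28 in BRD3308, 8.63 in DMSO), *Arap2* (3.94 in BRD3308, 3.94 in DMSO), *Cpa3* (1.40 in BRD3308, 1.39 in DMSO) and *Postn* (-2.76 in BRD3308, -2.94 in DMSO) did not pass the test of the difference.

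Cells with the P199L mutant were set against the same 4 BB libraries, so that the fold changes of the constructs share their controls and are given side by side without a test. *Serpina3g* was at 8.63, SE 0.21 with WT-ERG and 7.98, SE 0.23 with P199L-ERG, *Stfa3* at 4.78, SE 0.34 with WT-ERG and 3.66, SE 0.39 with P199L-ERG, and *Gata2* at 1.57, SE 0.10 with WT-ERG and 1.18, SE 0.10 with P199L-ERG. Among the genes that fell, *Ngp* was at -1.89, SE 0.14 with WT-ERG and -1.42, SE 0.14 with P199L-ERG, and *Cybb* at -1.90, SE 0.08 with WT-ERG and -1.73, SE 0.08 with P199L-ERG. These genes had the same sign with both constructs. *Miga1* was at -2.50, SE 0.13 with WT-ERG and -0.23, SE 0.10 with P199L-ERG, and *Cysltr1* at -1.94, SE 0.18 with WT-ERG and 0.73, SE 0.12 with P199L-ERG, both singled out after their values were seen. Without replicate 4 of the P199L-ERG cells the P199L-ERG fold changes were 7.95 for *Serpina3g*, 3.39 for *Stfa3*, 1.2 for *Gata2*, -1.55 for *Ngp*, -1.81 for *Cybb*, -0.31 for *Miga1* and 0.76 for *Cysltr1*.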

How the data were processed

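RNA of transduced ER-Hoxb8 cells was sequenced in 24 libraries (6 groups of 4), and the authors deposited 1 table of read counts per gene. Per the study's methods, reads shorter than 30 bp were discarded and the rest aligned with STAR to GRCm38. Cutadapt, HTSeq and DESeq2 stand beside STAR in the submitters' processing notes. For these steps no version, annotation or strand setting is given in the sources used here. Since genes that share sequence or overlap can share reads, close copies are reported as uncertain.

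The counts were tested as deposited with edgeR 4.0.16 (R 4.3.3). All 24 libraries entered a quasi-likelihood fit (robust, 1 coefficient per group) after filterByExpr and TMM scaling, p-values were adjusted by Benjamini and Hochberg over the 12963 genes tested, and calls were made at 0.05. Levels are CPM on TMM-scaled library sizes, and SE are those of the log2 fold change. *Erg* and *Gata2* were also compared by an exact permutation test on log2 CPM (scipy 1.17.1). Genes named were the 15 highest and 15 lowest log2 fold changes among called genes whose groups did not overlap and whose log2 CPM averaged 2 or more, the 10 smallest p-values, up to 4 genes of smallest p in each of 40 lists with up to 3 called against the list's direction, all heptad and NCoR-HDAC3 members, *Hoxb8* and cell type markers, and genes with at most 3 counts in 1 group and at least 1 CPM in every library of the other. The comparison, lists and members were chosen with earlier results of these data known. Alternatives were DESeq2 1.42.0, limma-voom (limma 3.58.1), RLE and unscaled library sizes, other filters and thresholds, the 2 groups alone, a replicate block, and each library left out. The test was run on simulated counts with the same spread between replicates for every gene and no library set apart. That setting does not cover the spread of the real libraries. No pair of libraries within the WT-ERG or the BB group in DMSO agreed within sampling noise, and pairs across the groups were not examined. Some genes that the rule names are not reported here.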

Additional observations from a re-analysis of the deposited data

Results flagged for a closer look

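The difference between WT-ERG and BB cells was itself different between treatments for 48 of the genes named above (edgeR test of the difference, adjusted p under 0.05). Given as the log2 fold change in BRD3308 minus that in DMSO, the 29 genes that were higher in DMSO were, from the largest difference down, *Ifitm1* (-1.58), *Gm15845* (-1.37), *Thy1* (-1.33), *Prkch* (-1.04), *BC100530* (-1.04), *Itgb7* (-1.0), *Gata2* (-0.93), *B4galnt4* (-0.88), *Stfa1* (-0.84), *Gm35853* (-0.84), *Ifitm3* (-0.79), *Serpinb10* (-0.70), *Ccr2* (-0.66), *Ccr1* (-0.63), *Fbln1* (-0.52), *Nkg7* (-0.49), *Nudt18* (-0.46), *Krt80* (-0.45), *Pecam1* (-0.44), *Siglecf* (-0.42), *Cdkn1a* (-0.42), *Bcl2* (-0.41), *Nlrc5* (-0.38), *Fam162a* (-0.35), *Ccl9* (-0.35), *Nop56* (-0.23), *Fcgr2b* (-0.22), *Lmo2* (-0.21) and *Ldha* (-0.16). The 19 genes that were lower in DMSO were *Il18* (1.88), *I830127L07Rik* (1.09), *Cybb* (0.94), *Ighm* (0.87), *Igll1* (0.76), *Ly6c2* (0.74), *Thbs1* (0.62), *Adgre1* (0.60), *Prom1* (0.54), *Ifit2* (0.53), *Prkcb* (0.46), *Csf2rb2* (0.46), *Sort1* (0.44), *F13a1* (0.42), *Ctnna1* (0.32), *Hlf* (0.32), *Megf9* (0.31), *Mpeg1* (0.31) and *Itgam* (0.24). All of these values run against the sign in DMSO, so that the fold change in BRD3308 was the smaller one in size for each of them, and for *Nudt18* it had the other sign. The genes were named for their differences in DMSO, which favours the larger value there, and the part of that choice in the pattern was not tested.

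In 21 of 390 combinations of a named gene and a group, 1 of the 4 libraries lay far from the other 3 by Dixon's test at the 95% level, where chance gives about 1 in 20. In WT-ERG replicate 1 this was the case for *Sort1* (63.9 CPM), *Thbs1* (1659 CPM) and *Thy1* (47.7 CPM). In WT-ERG replicate 2 this was the case for *Ets1* (0.182 CPM). In WT-ERG replicate 3 this was the case for *Stra6* (0.062 CPM). In WT-ERG replicate 4 this was the case for *Cd79b* (22.7 CPM), *F2rl2* (2.43 CPM), *Gm5960* (5.18 CPM), *Hdac3* (98.9 CPM) and *Ncor1* (343 CPM). In BB replicate 1 these were *Cxcr2* (28 CPM), *Golgb1* (107 CPM) and *Pcna* (362 CPM). In BB replicate 2 these were *Gm35853* (1.14 CPM) and *Ppp3cc* (0 CPM). In BB replicate 3 these were *Chn2* (9.15 CPM) and *F13a1* (536 CPM). In BB replicate 4 these were *Glul* (50.8 CPM), *Il6st* (0 CPM), *Sh3d19* (0.158 CPM) and *Shank3* (0.946 CPM).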

How the results depend on the processing

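The limits are those of 4 libraries per group, with separate transductions not stated in the sources used here. Without low-count filtering or with more than 30 reads required in every library, 28451 and 9877 genes were tested, and with the 2 groups alone 11867. The counts of 2007 higher and 1811 lower genes stayed within 1.5 times under DESeq2 (1881 and 1881), limma-voom (2004 and 1831), RLE (1920 and 1916) and unscaled library sizes (2107 and 1751), no filter (1861 and 1813), 30 reads (1689 and 1687) and the 2 groups alone (1993 and 1979), and ran from 1745 to 1854 and from 1549 to 1727 with a WT-ERG or BB library left out. At more than 1 on the log2 scale they were 263 and 229. In BRD3308, the 1354 higher and 1380 lower genes came to 884 and 894 at an adjusted p under 0.01 and to 206 and 153 beyond 1 on the log2 scale, and ran from 1051 to 1189 and from 1112 to 1456 with a library left out. The 106 and 115 genes whose difference was higher or lower in BRD3308 came to 51 and 59 at 0.01, to 9 and 16 beyond 1, and ran from 70 to 99 and from 87 to 117 with a library left out, 70 being the value without BB replicate 3 in DMSO.

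The replicate block gave 2463 higher and 2249 lower genes in DMSO, 1778 and 1808 in BRD3308, and 228 and 219 differences that were higher or lower in BRD3308. Deviations of same-numbered WT-ERG and BB libraries correlated at 0.21, 0.02, -0.005 and 0.08. WT-ERG replicate 3 correlated best with BB replicate 4 (0.06), and WT-ERG replicate 4 with BB replicate 3 (0.10). The study's methods give 4 independent experiments for each sample type and do not state whether equal numbers mark the same experiment. In each of the 6 groups of the study, replicate 1 had the highest correlation with exon length, and replicates 1 and 4 were the most distant pair. The main fit has no term for the replicate number, and whether the number marks a shared experiment was not tested. Among named genes the block added the call of *Tal1* and removed none.

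With 1 library left out, the exact test of *Erg* and *Gata2* gave p = 0.0571, the smallest it can reach, at log2 differences of 0.14 to 0.19 and 1.45 to 1.61. With a library left out, 4 fold changes that did not pass turned direction. *Csf2rb* ran from -0.0428 to 0.000363 (positive without WT-ERG replicate 4), *Ncor1* from -0.0871 to 0.0183 (positive without WT-ERG replicate 4), *Golgb1* from -0.00288 to 0.109 (negative without WT-ERG replicate 1) and *Runx1* from -0.0213 to 0.0709 (negative without BB replicate 1). Of 195 named genes, 176 kept their direction and side of 0.05 in every alternative but the stricter threshold, and 8 lost a call with a library left out. Of 80 counts of higher or lower list members, 21 moved by more than 1.5 times with a library left out, and 35 under any alternative other than a stricter threshold. The causes were not tested.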
